A study of Mus musculus with 5 samples.

Results

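The genes described here are 4 enzymes of catecholamine synthesis and its cofactor (Th, Ddc, Dbh and Gch1), the vesicular monoamine transporter Slc18a2 and the 3 vesicular glutamate transporters Slc17a6, Slc17a7 and Slc17a8, measured across the 14 cell types of the mouse dorsal root ganglion. They were taken by name from a list that was chosen with earlier results of these data known. Each name was matched to a gene row of the count matrix by its symbol, and all 8 were present among 17267 mouse gene rows. The cells came from lumbar dorsal root ganglia (DRG) of 5 untreated wild-type C57BL/6 mice aged 18 weeks, 3 males and 2 females. The study used them as the reference for a method that estimates cell type proportions in bulk tissue. All mice belonged to 1 condition, so every comparison is between cell types within the ganglion.

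Catecholamines are made in a chain of steps. Tyrosine hydroxylase, encoded by Th, converts tyrosine to L-DOPA with tetrahydrobiopterin as cofactor, and GTP cyclohydrolase (Gch1) carries out the first and limiting step in making that cofactor. DOPA decarboxylase (Ddc) then gives dopamine, which Slc18a2 (VMAT2) loads into vesicles, where dopamine β-hydroxylase (Dbh) turns it into noradrenaline. Somatosensory neurons release glutamate as their main fast transmitter, and the proteins of Slc17a7 (VGLUT1), Slc17a6 (VGLUT2) and Slc17a8 (VGLUT3) fill their vesicles with it. In the DRG, Th and Slc17a8 are known as marks of unmyelinated low-threshold touch neurons, and Slc17a7 of large myelinated neurons.

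The matrix held 3352 cells and 224553219 unique molecular identifiers (UMIs, each marking a captured transcript). The cell names carry 5 library identifiers, here called A to E, and each was taken as 1 mouse. No label ties a library to a sample name or a sex, and whether they also differ in preparation batch is not stated. They held 164 to 1370 cells and 13050375 to 88886919 UMIs, with a median of 52499.5 to 72840 UMIs per cell. A barcode sequence was shared between libraries 7 times, in 14 cells, and these cells were kept as separate cells. Each cell carries a type name. There are 3 neurofilament types (NF), 3 non-peptidergic types (NP), 5 peptidergic types (PEP), a type named Th, satellite glia and endothelial cells. The types were clustered from these same counts, so tests between them give the size of a difference and are no independent evidence for it. The Th type carries the name of a gene described here, and its Th level is given as a description. A level is given in CPM, the UMIs of a gene per 1000000 UMIs of all cells of a type in a library, with mean ± SD over the 5 libraries (n = 5). The assay reads the 3′ ends of transcripts, so levels are compared between types and not between genes.

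Total UMIs differed widely between the members. Slc17a6 had 32745 UMIs in 2920 cells, Th 12070 in 600 cells, Slc17a7 8308 in 545 cells, Gch1 2680 in 1362 cells and Slc17a8 1231 in 337 cells. Slc18a2, Ddc and Dbh were close to the limit of detection, with 136, 67 and 22 UMIs in the whole data set. In the mouse annotation, Gch1, Slc17a6 and Slc17a7 overlap another gene on the same strand, while Ddc, Gch1 and Slc18a2 overlap a gene on the other strand. None of those partners has a row in the matrix.

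The promoters of 4 members are shown first: Th and Slc17a8, which were both highest in the Th type, and Slc17a7 and Slc17a6, whose ratio differed between neuron classes. Each is the 250 bases before the gene start listed by RefSeq (GRCm38.p6), 5′ to 3′ on the gene's strand, and capitals mark motif matches on either strand. The motifs searched were TGACGTCA (the cAMP response element), TATAAA (the TATA box), TGTGGT (read by RUNX factors) and GGGCGG (the GC box).
Th: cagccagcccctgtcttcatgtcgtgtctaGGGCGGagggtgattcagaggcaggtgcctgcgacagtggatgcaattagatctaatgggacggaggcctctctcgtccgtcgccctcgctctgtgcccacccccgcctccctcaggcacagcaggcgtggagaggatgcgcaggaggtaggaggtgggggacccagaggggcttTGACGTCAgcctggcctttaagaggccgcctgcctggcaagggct
Slc17a8: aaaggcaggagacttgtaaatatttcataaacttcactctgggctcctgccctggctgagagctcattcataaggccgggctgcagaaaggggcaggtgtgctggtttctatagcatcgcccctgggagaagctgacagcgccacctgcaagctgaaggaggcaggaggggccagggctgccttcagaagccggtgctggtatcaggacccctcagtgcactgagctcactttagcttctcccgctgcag
Slc17a7: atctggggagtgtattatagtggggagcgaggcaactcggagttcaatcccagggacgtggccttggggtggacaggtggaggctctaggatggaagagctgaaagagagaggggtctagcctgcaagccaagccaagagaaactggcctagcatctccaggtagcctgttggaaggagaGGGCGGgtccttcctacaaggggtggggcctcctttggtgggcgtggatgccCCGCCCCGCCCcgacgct
Slc17a6: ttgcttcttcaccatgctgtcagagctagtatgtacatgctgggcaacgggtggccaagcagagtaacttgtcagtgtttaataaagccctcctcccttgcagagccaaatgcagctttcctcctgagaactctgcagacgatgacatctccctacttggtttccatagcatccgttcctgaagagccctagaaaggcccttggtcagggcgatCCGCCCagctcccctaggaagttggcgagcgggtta
The Th window lies at chr7:142899996-142900245 on the minus strand, the Slc17a8 window at chr10:89621250-89621499 on the minus strand, the Slc17a7 window at chr7:45163671-45163920 on the plus strand and the Slc17a6 window at chr7:51621580-51621829 on the plus strand. Th held the cAMP response element with its first base 45 bases before the start, and a GC box at 220 bases. Slc17a7 held 3 GC boxes, at 70, 18 and 13 bases, of which the last pair overlap by 1 base. Slc17a6 held 1 GC box at 36 bases, and Slc17a8 held none of the 4 motifs. For these 2 genes 2 windows each were listed, and only the one at the gene start is described. Gch1, whose level also set types apart and whose window is not shown, held a TATA match at 188 bases. It also held GC boxes at 118 and 105 bases. Of 32817 such windows in the mouse genome, 1.55% held the cAMP response element, 12.4% the TATA box, 14.04% the RUNX motif and 32.7% the GC box. The G and C content was 64.4% for Th, 61.2% for Slc17a7, 57.2% for Slc17a8 and 53.2% for Slc17a6, against a median of 52.4%. A match describes letters in the window only, and no binding was measured.

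Th was expressed far more in the type named after it than anywhere else in the ganglion, but 3 peptidergic types also carried it. In libraries A to E, its level in the Th type was 946, 920.3, 656, 677 and 538 CPM, with a mean of 747 ± 178 CPM. PEP1_Dcn neurons followed with 75.3, 116, 64.5, 138 and 89.0 CPM, PEP3_Trpm8 neurons with 27.0, 46.9, 32.6, 38.7 and 25.3 CPM, and PEP2_Htr3a.Sema5a neurons with 5.67, 30.5, 20.05, 30.1 and 19.3 CPM. The range of the Th type lay above that of PEP1_Dcn, and PEP1_Dcn above PEP3_Trpm8, without overlap, while PEP3_Trpm8 and PEP2_Htr3a.Sema5a overlapped, with PEP3_Trpm8 higher in 5 of 5 libraries when compared within a library. The mean in PEP1_Dcn was 96.4 ± 30.0 CPM, and the Th type was 7.75-fold higher. No other type reached a mean above 3.20 CPM, the value of NF2_Ntrk2.Necab2, where 16 of 24 Th UMIs came from a single cell. Endothelial cells held no Th UMI, which allows a level of up to 3.19 CPM.

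**Figure D1:**
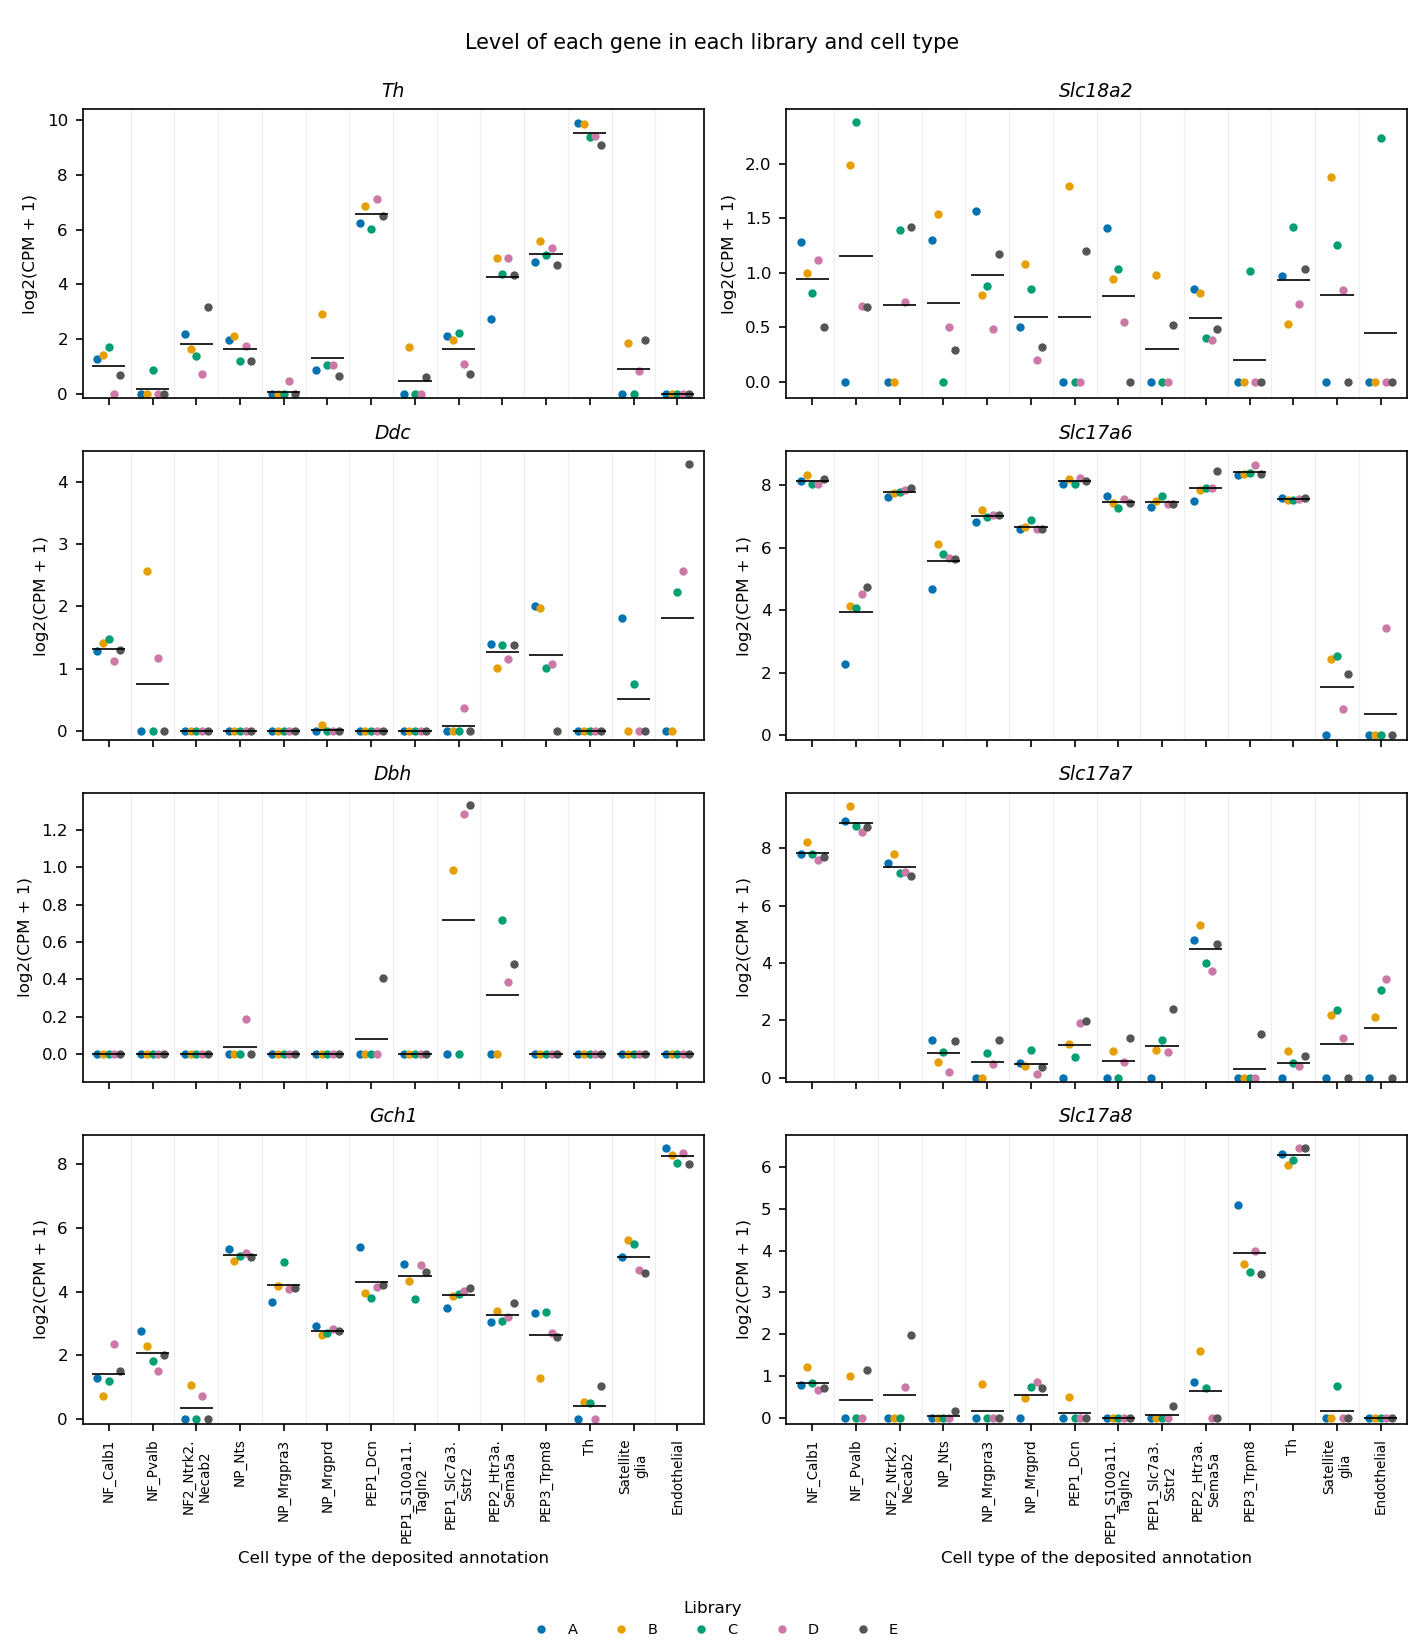
Level of each of the 8 genes as log2(CPM + 1) on the y axis in each of the 14 cell types on the x axis, where a dot is a library (A to E, by colour) and a line is the mean of the dots. Th and Slc17a8 peak in the Th type, Slc17a7 in the 3 NF types and Gch1 in endothelial cells, where it averaged 304 CPM, and the axes of Ddc, Dbh and Slc18a2 span low values only.

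The cells of these types differed in how Th was spread among them. The median cell of the Th type held 32.5 Th UMIs and the highest 284, and the quartiles lay at 327, 657 and 933 CPM per cell. There, 176 of 232 cells had 10 or more Th UMIs and together held 98.9% of the type's Th. In PEP1_Dcn, 25 of 163 cells passed that number and held 62.7% of the Th UMIs, and in PEP2_Htr3a.Sema5a 13 of 206 cells held 71.1%. In PEP3_Trpm8, 2 of 168 cells had 10 or more UMIs and held 17.4% of the total. The cut of 10 UMIs was not adjusted for depth or for the Th level of a type. Without that cut, the 10% of cells with the most Th UMIs held 54.3% of the total in PEP3_Trpm8 and 52.4% in PEP1_Dcn. The same share was 83.6% in PEP2_Htr3a.Sema5a and 35.4% in the Th type. PEP3_Trpm8 and PEP1_Dcn were thus alike in this measure. In NP_Mrgprd neurons 1 cell of library B held 83 of the type's 165 Th UMIs and no UMI of Slc17a8, and without it library B had 1.38 CPM in place of 6.53 CPM.

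At least 1 Th UMI was found in 91.8% of cells of the Th type, 64.4% of PEP1_Dcn, 45.2% of PEP3_Trpm8 and 25.7% of PEP2_Htr3a.Sema5a cells. The types differ in depth, with a median of 56281, 49516, 30800.5 and 73919 UMIs per cell, so each cell was also thinned at random to 10000 UMIs, which left out 0 cells. The shares then were 81.5%, 41.7%, 21.4% and 12.6%, in the same order. Satellite glia, which should lack Th, gave 2.01% before and 1.61% after thinning with a median depth of 17729 UMIs, and endothelial cells 0 of 56 (median depth 16889), which allows a share of up to 5.36%. The shares in the 4 neuron types were thus above that in glia at equal depth. Intervals and limits of this kind cover counting error only.

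**Figure D2:**
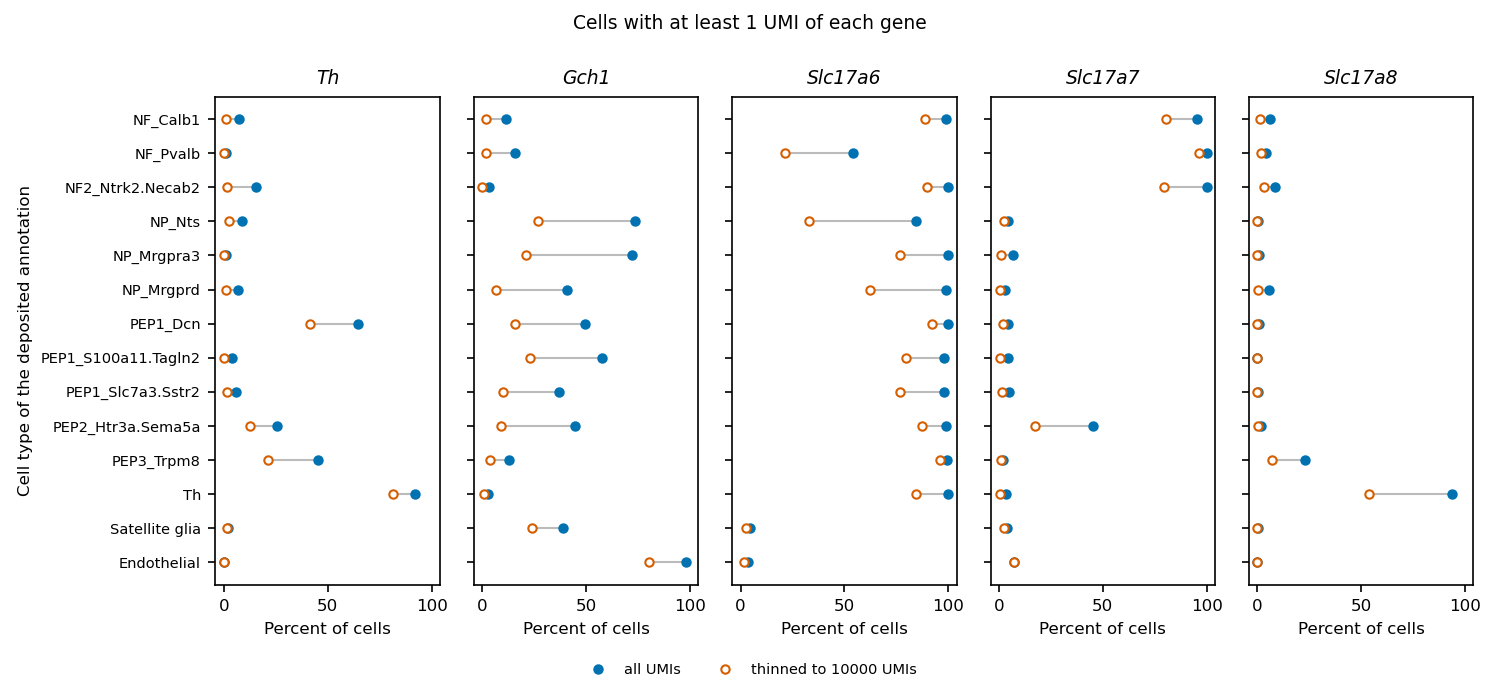
Percent of cells with at least 1 UMI (x axis) of the 5 genes with enough counts in each of the 14 types (y axis), with all UMIs (filled points) and after thinning each cell to 10000 UMIs (open points). The Th share of the Th type moved from 91.8% to 81.5%, whereas the Slc17a8 share there moved from 93.5% to 53.9%.

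The next enzymes of the chain were almost absent from the cells with the most Th. Ddc had no UMI in the 232 cells of the Th type, which allows up to 0.216 CPM and up to 1.29% of cells with a UMI. This was not particular to the Th type, as 6 of 14 types held no Ddc UMI. The others were NF2_Ntrk2.Necab2, NP_Nts, NP_Mrgpra3, PEP1_Dcn and PEP1_S100a11.Tagln2, while NP_Mrgprd and PEP1_Slc7a3.Sstr2 held 1 UMI each. Ddc was seen, at low level, in NF_Calb1 with 1.43, 1.66, 1.78, 1.17 and 1.45 CPM and in PEP2_Htr3a.Sema5a with 1.62, 1.02, 1.62, 1.23 and 1.59 CPM. These are the only types with Ddc in all 5 libraries, and their ranges overlap. They rest on 23 UMIs each, in 11.7% and 10.7% of the cells, falling to 3.89% and 1.94% after thinning. Satellite glia had Ddc in 0.803% of cells, 0.402% after thinning. PEP3_Trpm8 had 6 Ddc UMIs, NF_Pvalb 7 and endothelial cells 4, the last in 4 of 56 cells. At this depth, the thinned neuronal shares could not be told from the 7.14% of endothelial cells.

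Dbh likewise had no UMI in the Th type, with the same limits. Of its 22 UMIs, 15 were in PEP1_Slc7a3.Sstr2 neurons, at 0, 0.976, 0, 1.43 and 1.52 CPM in libraries A to E, and 5 in PEP2_Htr3a.Sema5a. NP_Nts and PEP1_Dcn held 1 each, and the other 10 types held none. The PEP1_Slc7a3.Sstr2 cells with a Dbh UMI were 4.39% of the type and 1.46% after thinning, against 0 of 249 satellite glia, which allows up to 1.20%. Slc18a2 was low throughout, with type means from 0.204 to 1.68 CPM. Its 12 UMIs in the Th type gave 0.964, 0.446, 1.68, 0.639 and 1.04 CPM, a mean of 0.954 ± 0.472 CPM. Satellite glia had 0.970 ± 1.12 CPM, and every pair of neighbours in the order of types overlapped. Its highest mean, 1.68 CPM in NF_Pvalb, passed to NP_Mrgpra3 at 1.09 CPM when library C was left out.

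Gch1 followed a pattern of its own and was nearly absent where Th was highest. Endothelial cells had by far the most, with 360.3, 311, 262, 328 and 259 CPM (mean 304 ± 43.5 CPM) in 3 to 16 cells per library. Satellite glia and NP_Nts neurons came next with the same mean of 34.4 CPM, SD 11.2 and 3.62. In NP_Nts the libraries gave 39.5, 29.9, 33.5, 36.3 and 33.0 CPM, all above the highest library of PEP1_S100a11.Tagln2, which had a mean of 22.1 ± 6.43 CPM. Endothelial cells did not overlap satellite glia, which overlapped NP_Nts. In the Th type Gch1 was at 0, 0.446, 0.420, 0 and 1.04 CPM, from 6 UMIs in 232 cells, and NF2_Ntrk2.Necab2 had 2 UMIs in 58 cells.

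Among neurons, Gch1 lay at 18.1 ± 6.60 CPM in NP_Mrgpra3 and 13.9 ± 2.36 CPM in PEP1_Slc7a3.Sstr2. NP_Mrgprd had 5.86 ± 0.537 CPM, with PEP3_Trpm8 at 6.03 ± 3.20 CPM and PEP2_Htr3a.Sema5a at 8.79 ± 1.75 CPM just above it. Neighbours in this order overlapped. PEP1_Dcn had 13.03 to 17.5 CPM in 4 libraries and 41.1 CPM in library A, where the type had 4 cells. The share of cells with a Gch1 UMI was 98.2% in endothelial cells, 73.5% in NP_Nts, 39.0% in satellite glia and 2.59% in the Th type, and after thinning 80.4%, 26.8%, 24.1% and 0.862%. The thinned share of the Th type was thus below that of every type named with it. Beside endothelial Gch1, pericyte and smooth muscle markers summed to 144 to 738 CPM in endothelial cells, with 0 of 6 at no UMI, satellite glia markers to 655 to 14265 CPM, and neuron markers to 326 to 1063 CPM against 10774 to 12114 CPM in the Th type. Their part in the Gch1 level was not tested.

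The test set the sum of a type in each library against the sum of all its other cells, 5 against 5, with edgeR's quasi-likelihood test and Benjamini-Hochberg adjustment. A gene was called at an adjusted p under 0.01 and a fold of at least 2. The standard error (SE) given with a log2 change was derived from the test, as the absolute change over the square root of its F statistic. Over the 14 types, 71 member tests passed the filter on low counts. Th, Gch1, Slc17a6, Slc17a7 and Slc17a8 were tested in every type and Slc18a2 in NP_Mrgprd, where it was not called, while Ddc and Dbh were tested in none. Calls were 10 higher and 42 lower, and 19 tests gave no call. Over all genes, tests were called higher in 9.32% and lower in 16.4% of cases. The Th type, which is in the comparison group of every other type, held 10339 of the 12070 UMIs of Th and 1063 of the 1231 of Slc17a8. Another fit took all 70 sums with the library as a block and set each type against the mean of the other 13. That mean was taken over log levels, so types with few UMIs of a gene lower it. The calls were then 23 higher and 15 lower.

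In the Th type, 2 of 5 tested members were higher, where 7.06% of all genes were, and 2 lower, where 13.9% were. PEP3_Trpm8 had 2 higher (7.28% of all genes) and 2 lower (11.1%) of 5. Each NF type had 1 of 5 higher, with a background of 14.8% in NF_Calb1, 13.4% in NF_Pvalb and 7.79% in NF2_Ntrk2.Necab2. Lower calls there were 3, 4 and 3, with a background of 15.8%, 17.5% and 13.5%. NP_Nts had 1 higher (6.13%) and 4 lower (18.5%), NP_Mrgpra3 0 higher (3.12%) and 3 lower (11.6%), and NP_Mrgprd, with 6 tested, 0 higher (5.82%) and 4 lower (21.7%). PEP1_Dcn had 0 higher (6.87%) and 2 lower (8.28%), PEP1_S100a11.Tagln2 0 higher (3.98%) and 3 lower (8.36%), PEP1_Slc7a3.Sstr2 0 higher (6.93%) and 3 lower (12.1%), and PEP2_Htr3a.Sema5a 0 higher (8.74%) and 2 lower (10.6%). Satellite glia had 1 higher (21.4%) and 4 lower (32.5%), and endothelial cells 1 higher (17.4%) and 3 lower (34.2%).

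**Figure D3:**
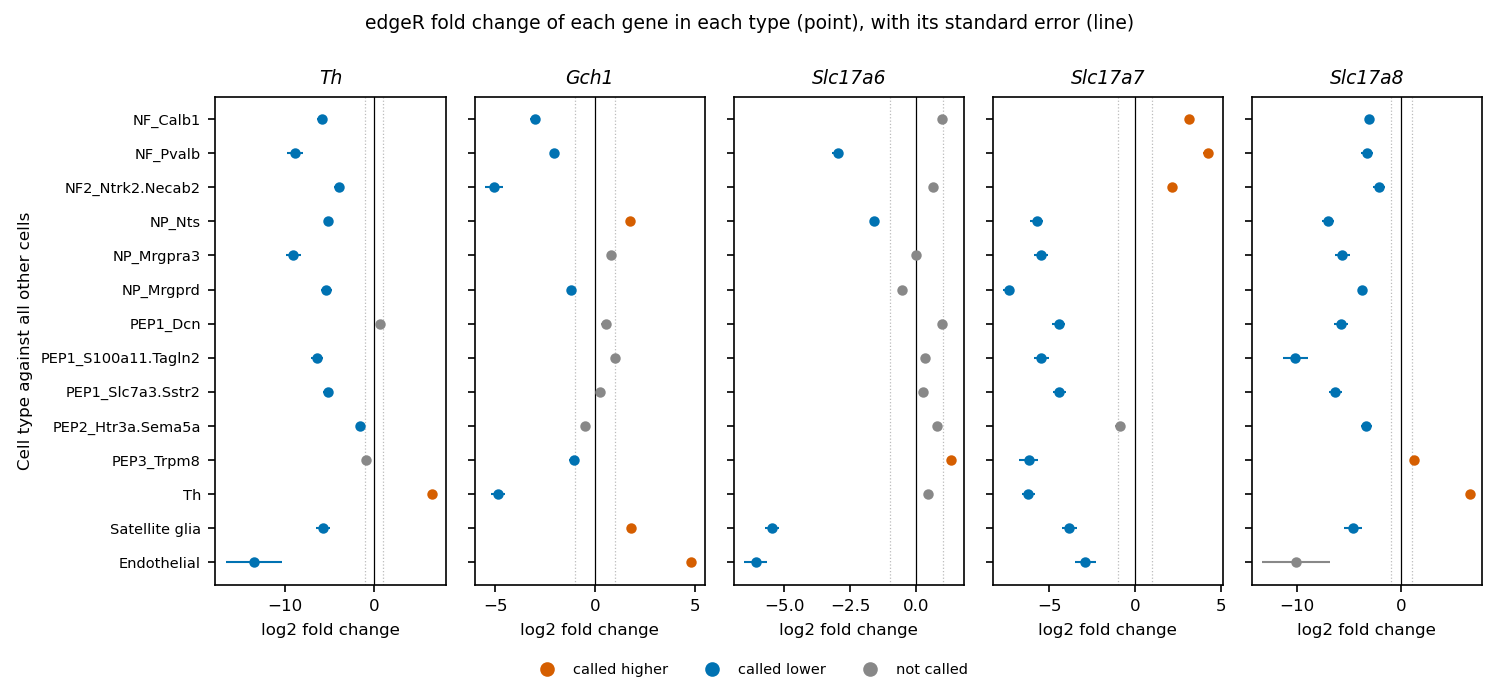
edgeR log2 fold change (x axis) of 5 genes in each type against all other cells of the libraries (y axis). A line is its standard error, derived from the F statistic of the test, dotted lines mark a fold of 2 and colours the call. Slc17a8 stands at 6.59 in the Th type and Slc17a7 at 4.23 in NF_Pvalb, while points of Th and Slc17a8 in types with no UMI have wide errors and are no bound.

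As a description, Th was 6.502 higher on the log2 scale (SE 0.32) in the Th type than in all other cells, in 5 of 5 libraries. It was lower in 11 types, and not called in PEP1_Dcn (log2 0.65, SE 0.34, adjusted p = 0.147) or PEP3_Trpm8 (log2 -0.89, SE 0.37, adjusted p = 0.0585). PEP2_Htr3a.Sema5a was called lower (log2 -1.65, SE 0.39, adjusted p = 0.00247), a call that was lost without library A (log2 -1.40, adjusted p = 0.0117) or library C (log2 -1.60, adjusted p = 0.0115). In the fit of all 70 sums none of the 11 lower calls of Th held. There, 9 kept the direction without the call, with the smallest changes in NP_Nts (log2 -0.47) and NP_Mrgprd (log2 -0.48). Others of the 9 stayed far lower, as over all alternatives NF_Pvalb ran from log2 -13.7 to -4.30 and NP_Mrgpra3 from -13.6 to -4.48. In the fit of all 70 sums NF2_Ntrk2.Necab2 reversed (log2 0.64), and PEP2_Htr3a.Sema5a reversed and was called higher (log2 3.15, adjusted p = 7.95e-15). In that fit the Th type counts as 1 of 13 types compared, and the mean of the 13 is taken over log levels, where types with few Th UMIs lower it. The comparison cells of PEP2_Htr3a.Sema5a, which include the Th type, had 69.2 ± 36.0 CPM.

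Gch1 was higher in endothelial cells (log2 4.82, SE 0.15, adjusted p = 6.97e-14), satellite glia (log2 1.83, SE 0.19, adjusted p = 1.65e-07) and NP_Nts (log2 1.74, SE 0.11, adjusted p = 9.18e-09). It was lower in 6 types, first among them NF2_Ntrk2.Necab2 (log2 -5.06, SE 0.46, adjusted p = 2.45e-07) and the Th type (log2 -4.87, SE 0.35, adjusted p = 2.86e-08). The call of PEP3_Trpm8 as lower (log2 -1.06, SE 0.26, adjusted p = 0.00330) was lost without library B (log2 -0.92, adjusted p = 0.00924), D (log2 -1.004, adjusted p = 0.0240) or E (log2 -1.04, adjusted p = 0.0135), against other neurons only (log2 -0.80, adjusted p = 0.0307) and in the fit of all 70 sums (log2 -0.69, adjusted p = 0.0649). The rest were NF_Calb1, NF_Pvalb and NP_Mrgprd, where NP_Mrgprd (log2 -1.21) fell below the 2-fold limit against other neurons only (log2 -0.90, adjusted p = 0.000162) and lost its call in the fit of all 70 sums (log2 -0.46, adjusted p = 0.0250).

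Other genes of the catecholamine and tetrahydrobiopterin pathway were described in the Th type, where Th itself was high. Of 17 listed genes, 11 were tested, 2 were higher, 2 lower and 7 not called. Over all genes, 7.06% were called higher and 13.9% lower in this type. The median log2 change of the list was -0.55 beside 0.0070 over all genes. Higher were Pcbd1 (301.9 ± 28.9 CPM, log2 1.39, SE 0.11, adjusted p = 5.78e-08), which recycles the cofactor, and Maoa (99.5 ± 31.6 CPM, log2 1.25, SE 0.15, adjusted p = 8.72e-06), which degrades monoamines. Lower were Qdpr (log2 -1.18, adjusted p = 1.25e-06), also of cofactor recycling, and Moxd1 (log2 -1.48, adjusted p = 5.88e-05), a relative of Dbh. Spr and Pts, which act after Gch1 in making the cofactor, had log2 changes of -0.95 and 0.68 and were not called. Pnmt, which makes adrenaline, and Maob had no UMI in the Th type, and the noradrenaline transporter Slc6a2 had 12 UMIs.

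Catecholamine receptors gave 3 tested genes of 14 in the Th type, where 7.06% of all genes were called higher and 13.9% lower. Adra1d (4.88 ± 0.909 CPM, log2 4.05, adjusted p = 6.91e-09) and Adrb1 (7.86 ± 2.87 CPM, log2 4.21, adjusted p = 5.37e-09) were higher and Adra2c was lower (log2 -5.15, adjusted p = 1.62e-06), with a median of 4.05 and 8 of the 12 genes with a row at no UMI. None of the 3 serotonin pathway genes was tested, with Tph2 at 3.71 ± 1.89 CPM and Slc6a4 at 0.0892 CPM in the Th type. Markers of sympathetic neurons, the noradrenaline neurons of the sympathetic chain, had 6 of 10 genes with a row. In the Th type they summed to 10.9 to 18.9 CPM, of which Insm1 made up 14.6 CPM (log2 2.02, adjusted p = 1.23e-06), with Phox2a at no UMI and Gata2 and Npy at 2 UMIs each.

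Marker lists were compared with the label of the Th type, where 7.06% of all genes were called higher and 13.9% lower. All 5 tested touch C-fibre markers other than the members were higher there, among them Fam19a4 (log2 5.77) and Gfra2 (log2 2.19), with a sum of 1093 to 1232 CPM. Set against the NP and PEP types, the NF types were also higher in Pou4f2 (log2 2.81) and Zfp521 (log2 2.94). They were lower in Gfra2 (log2 -2.66) and not called in Fam19a4 (log2 -0.26), while Cdh9 was not tested. Of neuron markers 6 were tested in the Th type and none called. All 5 neurofilament markers were lower, 4 of 5 peptidergic markers were lower, and of 7 non-peptidergic markers 5 were lower and 2, Ret and Gfra2, higher. All 3 tested satellite glia markers and both endothelial markers were lower, with sums of 24.1 to 295.2 CPM and 0 to 1.26 CPM. Of 4 tested Schwann cell markers 2 were higher, Pmp22 and Mbp, with a sum of 1483 to 2023 CPM, and of 2 tested pericyte markers Rgs5 was higher and Pdgfrb lower, with a sum of 114 to 253 CPM and 3 of 6 at no UMI. Mast cell markers had 1 tested and lower, fibroblast markers 1 of 2 lower and macrophage markers none tested, with sums up to 5.04, 6.69 and 2.89 CPM. The part of these cells in the member levels was not tested.

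Few cells held both Th and a later step of the catecholamine chain. Th and Ddc UMIs met in 9 cells, of which 5 were PEP2_Htr3a.Sema5a, 2 NF_Calb1 and 2 PEP3_Trpm8. No cell held Th, Ddc and Dbh, and none held Th, Ddc and Slc18a2. Th met Slc18a2 in 29 cells, 11 of them in the Th type, and Dbh in 3 cells. Th met Gch1 in 175 cells, 51 of them PEP1_Dcn and 4 of the Th type. At the depth of Ddc, Dbh and Slc18a2, a cell without a UMI cannot be told from a cell without the transcript.

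The 3 vesicular glutamate transporters differed in the neuron types that held them. Slc17a6 was detected in nearly all neurons but NF_Pvalb and NP_Nts. It was highest in PEP3_Trpm8 with 318, 329, 335, 405 and 326 CPM (mean 343 ± 35.4 CPM), followed by NF_Calb1 with 284 ± 24.5 CPM, whose highest library, at 321 CPM, overlapped it. PEP1_Dcn had 280.1 ± 17.0 CPM, PEP2_Htr3a.Sema5a 249 ± 62.4 CPM, NF2_Ntrk2.Necab2 219.96 ± 15.8 CPM and the Th type 189.6 ± 4.32 CPM, the last with 195, 185, 186, 189.8 and 193 CPM. The NP types were lower, with 130.1 ± 13.4 CPM in NP_Mrgpra3, 102 ± 8.92 CPM in NP_Mrgprd and 49.7 ± 16.1 CPM in NP_Nts. NF_Pvalb, the type that bears the proprioceptor marker parvalbumin, had 3.84, 16.8, 16.0, 21.8 and 25.9 CPM. Its highest library overlaps the lowest of NP_Nts, 24.8 CPM in library A, while the other NP_Nts libraries lay above it, and within a library NP_Nts was higher in 5 of 5. Satellite glia had 2.60 CPM and endothelial cells 1.99 CPM.

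Slc17a6 was called higher in PEP3_Trpm8 (log2 1.31, SE 0.10, adjusted p = 5.79e-08). It was lower in NF_Pvalb (log2 -2.98, SE 0.20, adjusted p = 6.02e-09), NP_Nts (log2 -1.62, SE 0.15, adjusted p = 5.02e-07), satellite glia (log2 -5.47, SE 0.26, adjusted p = 5.07e-12) and endothelial cells (log2 -6.08, SE 0.44, adjusted p = 2.57e-09). The change in NP_Nts was under the 2-fold limit in the fit of all 70 sums (log2 -0.77, adjusted p = 0.000150). NF_Calb1 (log2 0.98) and PEP1_Dcn (log2 0.99) passed the p and stood just under a 2-fold change. At equal depth of 10000 UMIs, 21.2% of NF_Pvalb and 32.8% of NP_Nts cells had a Slc17a6 UMI (54.0% and 84.2% unthinned), against 2.41% of satellite glia (4.42% unthinned) and 1.79% of endothelial cells (3.57%). Both neuron types thus lay above the glial share and below the 84.5% of the Th type.

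Slc17a7 was confined, above a few CPM, to the NF types and PEP2_Htr3a.Sema5a. NF_Pvalb had 500.5, 704, 437, 379.9 and 424 CPM (mean 489 ± 128 CPM), NF_Calb1 221, 296, 224, 193 and 206 CPM (mean 228 ± 40.2 CPM) and NF2_Ntrk2.Necab2 179, 225, 139.7, 145 and 131 CPM (mean 164 ± 38.7 CPM). NF_Pvalb did not overlap NF_Calb1, which overlapped NF2_Ntrk2.Necab2 but was higher in 5 of 5 libraries. PEP2_Htr3a.Sema5a had 26.7, 39.2, 14.9, 12.3 and 24.3 CPM, below all NF libraries and above the means of all other types, of which the highest was 4.12 CPM in endothelial cells, from 5 UMIs.

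All 3 NF types were called higher, NF_Pvalb by log2 4.23 (SE 0.27, adjusted p = 4.96e-09), NF_Calb1 by log2 3.12 (SE 0.15, adjusted p = 5.58e-10) and NF2_Ntrk2.Necab2 by log2 2.13 (SE 0.22, adjusted p = 1.28e-06). Slc17a7 was lower in 10 types, the Th type among them (log2 -6.23, SE 0.40, adjusted p = 9.27e-09), and not called in PEP2_Htr3a.Sema5a (log2 -0.90, SE 0.29, adjusted p = 0.0169). The fit of all 70 sums lost the lower calls in satellite glia (log2 -0.56, adjusted p = 0.377) and endothelial cells (log2 0.27, adjusted p = 0.785). A Slc17a7 UMI was found in 45.1% of PEP2_Htr3a.Sema5a cells, 17.5% after thinning, against 4.02% and 2.41% of satellite glia and 7.14% and 7.14% of endothelial cells. The PEP2_Htr3a.Sema5a cells with Slc17a7 (93 cells, median 83235 UMIs) and without (113 cells, median 65839 UMIs) differed in other genes. Pooled over cells, those with Slc17a7 had 3248 CPM of the neurofilament gene Nefh against 2128.5 CPM, and 3853 CPM of the peptide gene Calca against 8994 CPM. For Th, level and share of cells went opposite ways, with 10.96 CPM and a UMI in 29.0% of the cells with Slc17a7, and 35.3 CPM and 23.0% of the cells without. These values compare cells and were not tested.

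Most Slc17a8 UMIs came from 1 type. The Th type had 78.0, 65.3, 71.0, 86.6 and 86.4 CPM (mean 77.5 ± 9.40 CPM), from 1063 of the 1231 UMIs. PEP3_Trpm8 followed with 33.0, 11.7, 10.2, 14.9 and 9.89 CPM, which did not overlap the Th type, and no other type had a mean above 0.804 CPM. PEP1_S100a11.Tagln2 and endothelial cells held no Slc17a8 UMI, which allows up to 0.310 and 3.19 CPM. In NP_Mrgprd, the most numerous type, 55 UMIs gave 0.496 ± 0.318 CPM.

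Slc17a8 was higher in the Th type by log2 6.59 (SE 0.15, adjusted p = 1.21e-12) and in PEP3_Trpm8 by log2 1.26 (SE 0.30, adjusted p = 0.00314), each in 5 of 5 libraries. The call in PEP3_Trpm8 was lost without library A, the highest (log2 1.06, adjusted p = 0.0112), and without library D (log2 1.19, adjusted p = 0.0240). It was lower in 11 types, of which NF2_Ntrk2.Necab2 (log2 -2.14, SE 0.55, adjusted p = 0.00418) lost the call in 4 of the 5 fits without 1 library. In the fit of all 70 sums none of the 11 lower calls of Slc17a8 held, since 5 reversed (log2 0.50 to 1.63) and 6 kept the direction without the call. Endothelial cells, at no UMI, were not called (adjusted p = 0.0145) and were called lower with the library as a block (adjusted p = 0.00419). A Slc17a8 UMI was found in 93.5% of Th type cells and 23.2% of PEP3_Trpm8 cells, and after thinning in 53.9% and 7.14%, against 0.402% of satellite glia and 0 of 249 after thinning, which allows up to 1.20%. The NP_Mrgprd share of 5.67% fell to 0.333%, within that limit.

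Most cells of the Th type held both Th and Slc17a8. There were 202 of 232 cells with both, 11 Th without Slc17a8, 15 Slc17a8 without Th and 4 neither. The 19 cells without Th had a median of 45860 UMIs and those with Th 57279. In PEP3_Trpm8, 76 of 168 cells held Th, 39 held Slc17a8, and 27 of these 39 held both. In PEP1_Dcn, 1 of 105 cells with Th held Slc17a8, and in PEP2_Htr3a.Sema5a 2 of 53. The PEP3_Trpm8 cells with Slc17a8 had the cold receptor gene Trpm8 in 84.6% and those without in 44.2%, at a median of 37449 and 30194 UMIs. In the same order, 5.13% and 6.98% held Fam19a4, a mark of touch C-fibres. Fam19a4 was not confined to touch C-fibres, as 56.5% of NP_Mrgprd cells with Th and 77.4% of those without held it. In PEP1_Dcn, cells with Th had 770.5 CPM of Dcn and cells without 168 CPM, at a median of 52526 and 44883 UMIs. The part of depth in these shares was not tested.

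**Figure D4:**
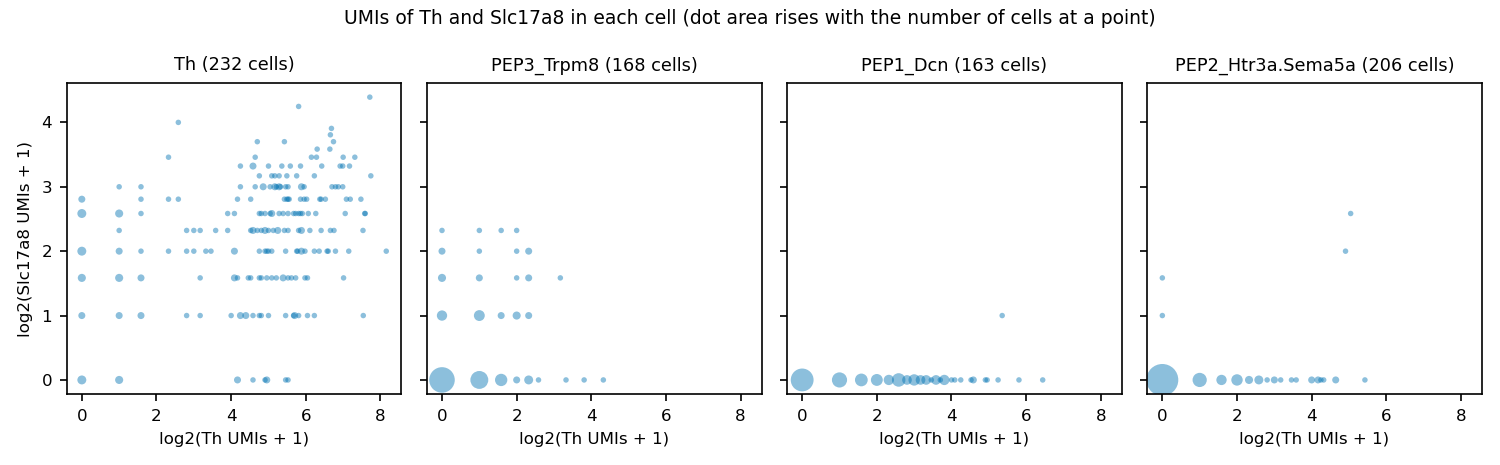
Th UMIs (x axis) and Slc17a8 UMIs (y axis) of each cell, both as log2(UMIs + 1), in the 4 types with most Th, where the area of a dot rises with the number of cells. The Th type fills the upper right with 202 of its 232 cells holding both genes, and PEP1_Dcn cells lie along the x axis, with 1 cell off it.

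The 3 transporters were then taken as shares of their summed UMIs in each type and library, to be compared between types and not between genes. In NF_Pvalb, Slc17a7 made up 99.2, 97.5, 96.5, 94.6 and 94.0% (mean 96.4 ± 2.15%). In NF_Calb1 it was 44.2 ± 2.76% and in NF2_Ntrk2.Necab2 42.3 ± 6.84%, with the rest nearly all Slc17a6. NF_Pvalb did not overlap the other NF types, which overlapped each other. PEP2_Htr3a.Sema5a had 12.7, 14.5, 5.76, 4.88 and 6.45% of Slc17a7. Slc17a8 made up 28.6, 26.0, 27.6, 31.3 and 30.9% in the Th type (mean 28.9 ± 2.21%) and 4.46 ± 2.78% in PEP3_Trpm8, 9.40% in library A and 2.93 to 3.55% in the others. In the NP and PEP1 types Slc17a6 made up 97.8 to 99.7%. The sum of all 3 was 513 ± 61.8 CPM in NF_Calb1, 506 ± 126 CPM in NF_Pvalb, 268 ± 12.7 CPM in the Th type and 50.6 ± 15.7 CPM in NP_Nts, the lowest among neurons.

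**Figure D5:**
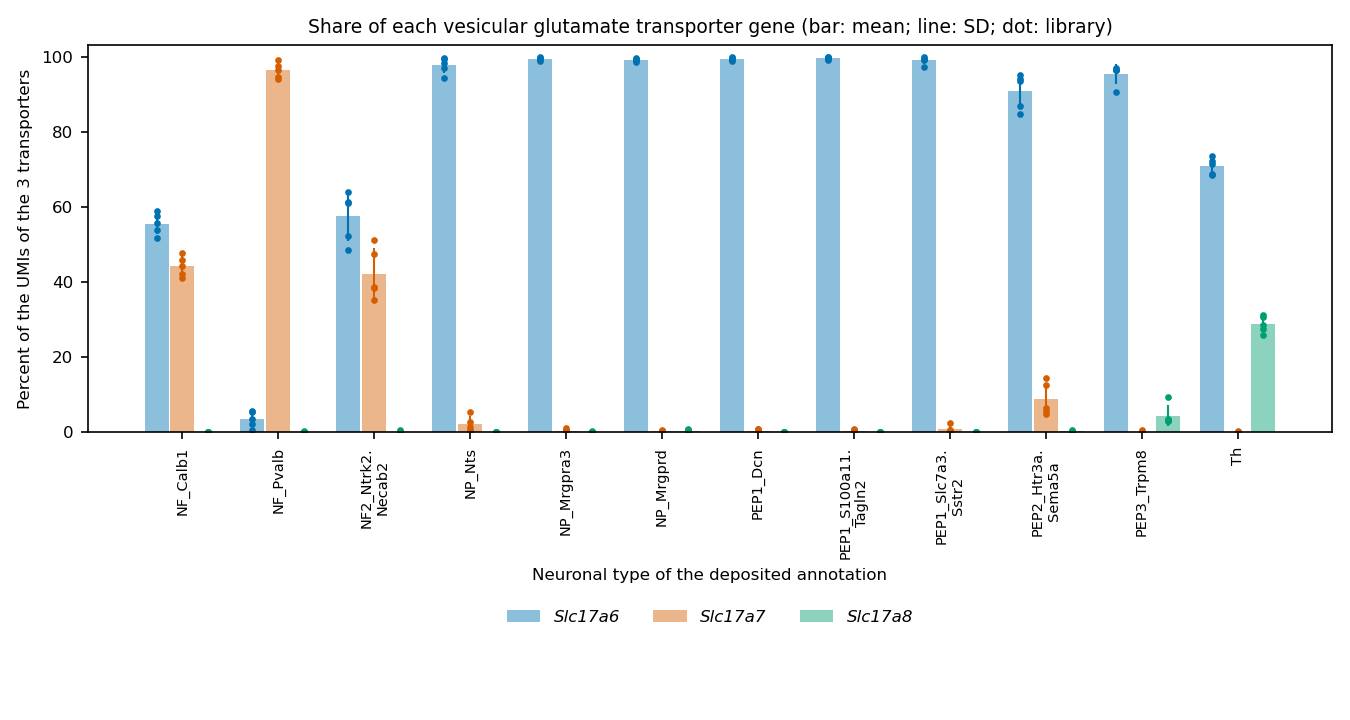
Share of Slc17a6, Slc17a7 and Slc17a8 in the summed UMIs of the 3 genes (y axis, percent) in the 12 neuronal types (x axis), with the mean as a bar from 0, SD as a line and libraries as dots. NF_Pvalb is nearly all Slc17a7 at 96.4%, and the Th type is the one with a tall Slc17a8 bar, at 28.9%.

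Cells with both Slc17a7 and Slc17a6 were common in the NF types, with 170 of 180 NF_Calb1, 58 of 58 NF2_Ntrk2.Necab2 and 61 of 113 NF_Pvalb cells. After thinning, 21.2% of NF_Pvalb cells still held both, in place of 54.0%. All 93 PEP2_Htr3a.Sema5a cells with Slc17a7 also held Slc17a6, as did all 8 such cells of the Th type.

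The sums of the 3 NF types were also tested against those of the 8 NP and PEP types, as Slc17a7 is known from large myelinated neurons. The NP and PEP sums include PEP2_Htr3a.Sema5a, which held 395 of their 507 Slc17a7 UMIs. Slc17a7 was at 282, 367, 259, 239.9 and 257 CPM in the NF class and 3.85, 5.28, 3.13, 1.24 and 2.56 CPM in the NP and PEP classes (log2 6.40, SE 0.29, adjusted p = 1.01e-10). The groups did not overlap. Gch1 was lower in the NF class, 1.84 ± 0.437 against 12.3 ± 1.43 CPM (log2 -2.88, SE 0.18, adjusted p = 2.36e-09), and so was Th, 1.40 ± 0.738 against 9.92 ± 4.98 CPM (log2 -2.81, SE 0.42, adjusted p = 2.50e-05). Pooled over libraries, Th was at 1.56 CPM in the NF types, 1.68 CPM in the NP types and 27.4 CPM in the PEP types. Slc17a6 differed by log2 0.43 (SE 0.09, adjusted p = 0.000638), under the 2-fold limit. Of 4 tested members 1 was thus higher, where 16.2% of all genes were, and 2 lower, where 14.8% were.

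Genes that supply and clear glutamate were described in the same comparison. Of 15 listed, 12 were tested, 6 were higher and 1 lower, where 16.2% and 14.8% of all genes were. The median log2 change of the list was 0.89 beside -0.02 over all genes. The higher ones were the glutamine transporters Slc38a1 (log2 2.47) and Slc38a2 (log2 1.46), the glutamate transporter Slc1a1 (log2 2.05), the neutral amino acid transporter Slc1a5 (log2 1.22), the transaminase Got1 (log2 1.23) and the glutaminase Gls2 (log2 1.04), and the lower one was Slc1a6 (log2 -2.02). The same list had, in the Th type, 0 higher and 4 lower of 13 tested (Slc1a1, Slc1a4, Slc1a5 and Slc1a6), with a median of -0.10. Over all genes in that type, 7.06% were called higher and 13.9% lower. There, Got1 was at 151 ± 60.6 CPM and Got2 at 126 ± 13.9 CPM, neither called.

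For the lists that follow, the share of all genes called higher was 7.06% in the Th type and 16.2% in the NF class. The share called lower was 13.9% and 14.8%. Of the vesicular proton pump, which drives every one of the vesicular transporters, 17 of 18 genes were tested. The Th type had 0 higher and 0 lower (median log2 -0.13), among them Atp6v1f at 772 ± 106 CPM and Atp6v1g1 at 613 ± 94.7 CPM. In the NF class (median log2 -0.32) 1 was higher, Atp6v1g2 (log2 1.04), and 2 lower, Atp6v0b (log2 -1.19) and Atp6v0e (log2 -1.79). Among 13 other vesicular transporters and transmitter enzymes 4 were tested, with a median log2 change of 0.28 in the Th type and 0.74 in the NF class. The vesicle protein gene Sv2a was higher in the Th type (54.8 ± 2.95 CPM, log2 2.34, adjusted p = 1.00e-08) and its relative Sv2b lower (log2 -6.28, adjusted p = 2.39e-09), while both were higher in the NF class (log2 1.15 and 3.24). Slc17a5 was at 23.4 ± 6.82 CPM in the Th type and not called. Of the catecholamine genes (median log2 -0.20) 1 of 13 tested was higher in the NF class, the vesicular monoamine transporter Slc18a1 (log2 2.93), and 1 lower, Qdpr (log2 -1.39). Of 4 tested receptor genes (median log2 3.17) Adra1b (log2 5.28), Adra1d (log2 4.28) and Adra2c (log2 2.06) were higher and Adra2a (log2 -3.34) lower.

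The genes most like each member were found by Pearson's r over the 14 type means of log2(CPM + 1), among 11124 genes with a type mean of at least 10 CPM. These points share libraries and depth, and the values are a description. For Th they were AW551984 (r = 0.89), ENSMUSG00000076612 (0.88) and Dgkk (0.86), and for Slc17a8 Dgkk (0.97), Lppr1 (0.97) and BC089491 (0.94), all highest in the Th type. Dgkk, a diacylglycerol kinase, was at 52.0 ± 12.8 CPM there. For Slc17a7 they were Gabrg1 (0.97), a GABA-A receptor subunit, 1500012K07Rik (0.96) and Hhatl (0.95), and for Slc17a6 Dos (0.98), Evl (0.95) and March4 (0.95). For Gch1 they were Tmod3 (0.93), Pdlim5 (0.93) and the kinase gene Jak2 (0.93), all highest in endothelial cells. Between members, r was 0.77 for Th with Slc17a8 and -0.41 for Th with Gch1. The latter was not particular to Th, since Gch1 had -0.64 with Slc17a6, -0.53 with Slc17a8 and -0.47 with Slc17a7. With Slc18a2, Ddc and Dbh, Gch1 had -0.32, 0.27 and 0.071. Ddc, Dbh and Slc18a2 were under the minimum level.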

How the data were processed

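Single cells of lumbar DRG from 5 mice were captured with the Chromium 3′ assay of 10x Genomics, which keeps strand. The authors counted UMIs with Cell Ranger on mm10, selected, clustered and annotated cells with Seurat, and deposited raw UMI counts per gene and cell, without normalization, with 1 type name per cell. The annotation's NF_Ca1b1 is written NF_Calb1 here. No doublet caller was run here. The 4 rows that name no mouse gene (6.37e-05% of UMIs) were left out, and no other column of sample values was set aside.

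UMIs were summed per type and library from the deposited counts. edgeR 4.0.16 in R 4.3.3 was used with filterByExpr, TMM and the quasi-likelihood test over all genes, with Benjamini-Hochberg adjustment, and called at an adjusted p under 0.01 and a fold of at least 2. Shares, thinning (to 10000 UMIs) and motifs were computed in Python 3.11.15 with numpy 2.4.6 and pandas 2.3.3. The tests were tried on simulated data. Alternatives were DESeq2 1.42.0, no filter on low counts, no minimum fold, sums of at least 10 cells, other neurons only, all 70 sums in 1 fit, cells over 10% mitochondrial UMIs left out (188 cells), thinning to 20000 UMIs and leaving out each library.

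Both sums of a library come from the same mouse, as the library identifier in the cell names shows, so they are paired. Their deviations from the group means had an r of -0.021 to 0.396 over types and libraries. Named were the 8 members, the 3 genes most like each, and of each pathway list the genes called in the Th type and the 2 with the highest level, while the other list genes, those of the NF comparison among them, were picked after their values were seen. Values of some list genes are not reported here. The members and lists were chosen with earlier results of these data known. Promoters are from RefSeq (GRCm38.p6).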

Additional observations from a re-analysis of the deposited data

Results flagged for a closer look

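In groups of 5 libraries, a library was singled out where its gap to the nearest of the others, over the whole range, passed Dixon's critical value. Over 57 combinations of a gene and a type with at least 10 UMIs, chance would give about 1 in 20, or 2.85, and 5 were found. Th in NP_Mrgprd was 6.53 CPM in library B and 0.592 to 1.10 CPM in the others, and 83 of the 105 Th UMIs of library B there came from 1 of 128 cells. Gch1 in PEP1_Dcn was 41.1 CPM in library A, which has 4 cells of the type, and 13.03 to 17.5 CPM in the others. Slc17a6 in PEP3_Trpm8 was 405 CPM in library D and 318 to 335 CPM in the others. Slc17a8 in NF_Calb1 was 1.33 CPM in library B and 0.587 to 0.763 CPM in the others, from 12 UMIs in all. Slc17a8 in PEP3_Trpm8 was 33.0 CPM in library A and 9.89 to 14.9 CPM in the others.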

How the results depend on the processing

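Of 645 recomputed fold changes of members called in a type or in the NF class, 601 kept their direction and call, 36 kept the direction and lost the call, and 8 reversed. DESeq2, no filter on low counts and the replicate block each kept all 55 called ones; the pairing changed no other call than that of Slc17a8 in endothelial cells. All 8 reversals and 19 of the 36 lost calls came from the fit of all 70 sums with a replicate block. In it a type is set against the mean of the log levels of 13 types, which types with few UMIs of a gene lower. There Slc17a8 was at log2 1.63 in NF2_Ntrk2.Necab2, 0.81 in NF_Calb1, 0.53 in PEP2_Htr3a.Sema5a, 0.52 in NP_Mrgprd and 0.50 in NF_Pvalb, Th at 0.64 in NF2_Ntrk2.Necab2 and 3.15 in PEP2_Htr3a.Sema5a, and Slc17a7 at 0.27 in endothelial cells. The member calls over 14 types were 23 higher and 15 lower in that fit, 10 and 42 in the main comparison, 17 higher with no minimum fold, and 10 to 13 higher and 39 to 42 lower without each library in turn. In the NF comparison 2 members were higher with no filter on low counts and 2 with no minimum fold, in place of 1. Slc17a8 in NF2_Ntrk2.Necab2 (log2 -2.14) lost its call without library A, B, C or D (log2 -2.03, -1.80, -1.97 and -1.92, adjusted p = 0.0123, 0.0210, 0.0143 and 0.0272), with sums of at least 10 cells (log2 -1.55, adjusted p = 0.0491) and without cells over 10% mitochondrial UMIs (log2 -1.89, adjusted p = 0.0112). Th in endothelial cells lost its call without library C (adjusted p = 0.0145) with sums of at least 10 cells (adjusted p = 0.0108) and in the fit of all 70 sums (adjusted p = 0.157). Combinations of a member and a type with a UMI in over 25% of cells were 19 after thinning and 30 without. Thinning lowered the share of cells with Th and Slc17a8 from 87.1% to 44.8% in the Th type and from 16.1% to 4.17% in PEP3_Trpm8, and that of NF_Pvalb cells with Slc17a7 and Slc17a6 from 54.0% to 21.2%. With 67 UMIs of Ddc, 22 of Dbh and 136 of Slc18a2, depth limits what can be said of these genes, and NF2_Ntrk2.Necab2 and endothelial cells rest on as few as 3 cells in a library.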
